A study of Mus musculus with 12 samples.

Results

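The regulators of G protein signalling (RGS) genes are a family whose proteins switch off the signal of G protein-coupled receptors. The 8 genes described are Rgs1, Rgs2, Rgs3, Rgs10, Rgs14, Rgs16, Rgs18 and Rgs19, taken by their symbol in the probe table of the array. Of these, 7 had a row that names them alone, out of 19937 genes tested, and Rgs10 was not analysed here. Only Rgs3 had more than 1 row, and the brighter of them by its mean was used. Messenger RNA had been measured on 12 Affymetrix Mouse Gene 1.0 ST arrays, 3 for each of 4 untreated populations of C57BL/6 bone marrow cells that were sorted and not cultured. LSK cells, a mixture of stem cells and their first progeny, were gated as free of lineage markers and positive for Sca1 and cKit. The promyelocyte, the myelocyte and the granulocyte follow each other on the way to the neutrophil, and were gated by Gr-1, cKit, CD34 and the low-affinity Fc gamma receptors among cells negative for B cell and T cell antigens and Sca1. The age and sex of the mice are not given in the sources used here, nor whether the arrays of a group, which the labels call biological replicates, came from different animals. The p-values therefore stand for the spread among these arrays, and part of it may be technical. The question put to the arrays was how the message of each RGS gene stood at each stage and at which step it changed.

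When a chemokine or another ligand engages its receptor, the receptor loads a G alpha subunit with GTP, and G alpha and the beta-gamma pair then pass the signal on. RGS proteins bind the loaded G alpha subunit and speed up its GTP hydrolysis, which ends the signal. In leukocytes they are known for limiting migration towards chemokines, most of whose receptors couple to the Gi class. Rgs1, Rgs2, Rgs3, Rgs16 and Rgs18 belong to the R4 subfamily of small RGS proteins, Rgs10 and Rgs14 to the R12 subfamily, and Rgs19 to the RZ subfamily.

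The sorted populations carried the markers of their labels. The mean log2 level of 6 LSK markers was 9.72 to 10.3 over the LSK arrays and at most 8.14 over the others. The mean of 6 primary granule genes was 10.9 to 11.5 in promyelocytes, although LSK arrays reached 10.3, and the mean of 6 secondary granule genes was 12.85 to 12.96 in myelocytes and 12.3 to 12.5 in granulocytes against at most 9.00 before. The mean of 4 mature granulocyte genes was 11.8 to 11.9 in granulocytes and 9.74 to 9.95 in myelocytes. Markers of other lineages were present as well: 8 basophil and mast cell genes averaged 7.75 to 9.89 in myelocytes and 7.08 to 8.59 in promyelocytes, and 6 eosinophil genes averaged 5.60 to 8.79 in promyelocytes, with no other array above 5.79. Markers of B cells averaged 5.16 to 6.03 in LSK cells and at most 4.60 elsewhere, close to the dim level of 4.51, which is the 95th percentile of 1194 olfactory and vomeronasal receptor genes. The number of arrays limits the precision of every value below, and in sorted bulk RNA fewer cells of a type cannot be told apart from less RNA per cell.

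A gene was counted as higher or lower, and is said to have risen or fallen, where its groups differed by a fold of 2 or more and the limma fit over all genes gave an adjusted p (Benjamini-Hochberg) below 0.05. By the moderated F test 6 of the 7 genes differed among the 4 stages, as did 54.0% of all genes, so this share says little about the family. The exception was Rgs16, with an adjusted p of 0.301. From LSK cells to promyelocytes 0 of 7 rose and 2 fell, Rgs1 and Rgs2, where 1.61% of all genes rose and 2.75% fell. From promyelocytes to myelocytes 4 of 7 rose, Rgs2, Rgs3, Rgs14 and Rgs19, and 0 fell, against 7.61% and 9.87% of all genes. From myelocytes to granulocytes 1 rose, Rgs3, and 1 fell, Rgs1, against 2.35% and 5.96%. The median difference of the 7 genes over these steps was -0.26, 1.16 and 0.38 on the log2 scale, and that of all genes 0.04, 0.01 and 0.09.

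The wider comparisons followed from the same 12 arrays and share their groups with the steps. Granulocytes stood above promyelocytes in 5 of 7 genes, all but Rgs1 and Rgs16, and below them in 1, Rgs1. The background was 10.1% higher and 16.3% lower. Granulocytes stood above LSK cells in Rgs3, Rgs14 and Rgs19 and below them in Rgs1, which is 3 and 1 of 7 against 9.59% and 16.5% of all genes. Myelocytes stood above LSK cells in Rgs14 and Rgs19 and below them in Rgs1, which is 2 and 1 of 7 against 7.74% and 10.8%.

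**Figure D1:**
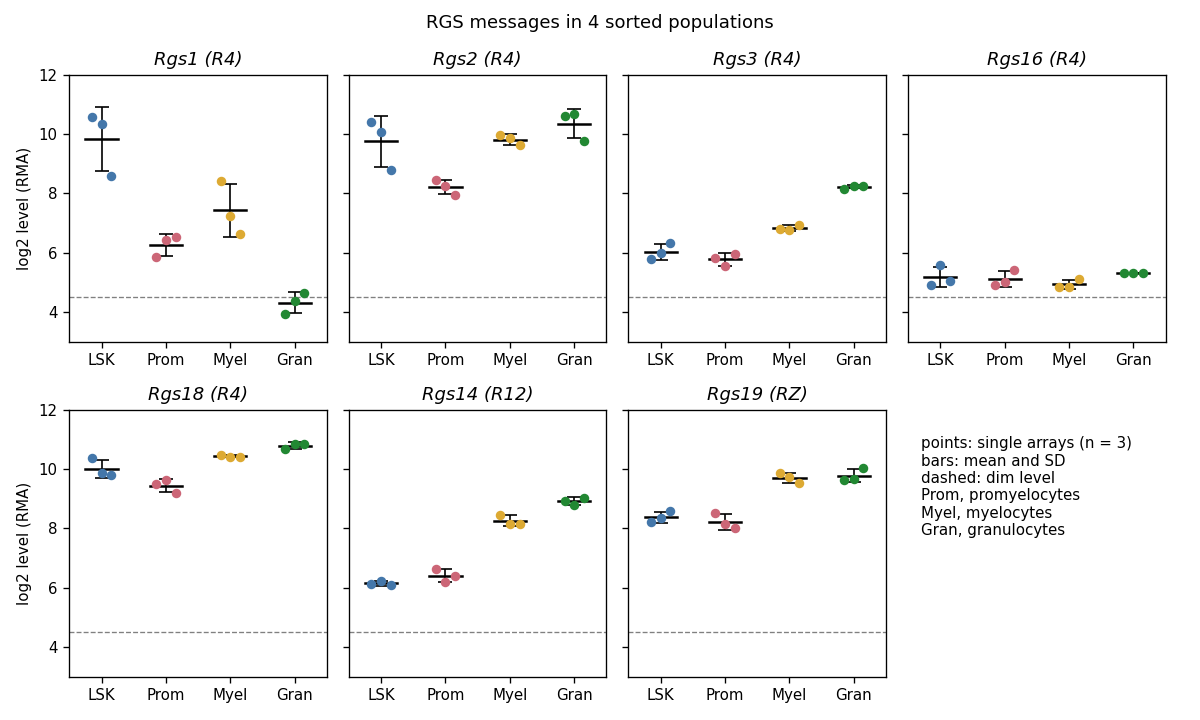
Deposited log2 level (vertical axis) of each of the 7 measured RGS genes in LSK cells, promyelocytes, myelocytes and granulocytes (horizontal axis), with points for single arrays, bars for the mean and SD of 3 arrays, the subfamily in brackets and a dashed line at the dim level of 4.51. Rgs1 has its highest points in LSK cells and lies around the dashed line in granulocytes, Rgs2 dips in promyelocytes, Rgs3 and Rgs14 climb to 8.23 and 8.91 in granulocytes, and Rgs16 stays between 4.85 and 5.58.

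**Figure D2:**
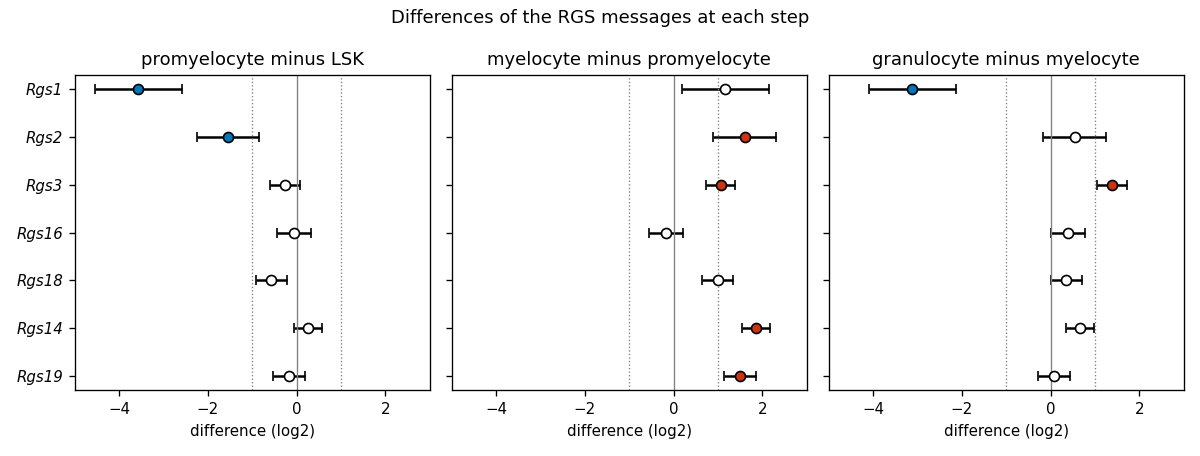
Difference in log2 level at each of the 3 steps (horizontal axis, point with its 95% interval from the limma fit) for the 7 RGS genes (vertical axis), with dotted lines at a fold of 2, red points for genes that rose, blue for genes that fell and white for those that did not pass. The blue points are Rgs1 and Rgs2 at the first step and Rgs1 at the last, 4 red points stand at the middle step, and Rgs3 alone is red at the last. The last point of Rgs1 is a difference to dim signal.

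Promoter sequence was at hand for 5 of the 8 genes, as 8 windows of the 250 bases before a RefSeq transcript start on GRCm38.p6. No window was at hand for Rgs1, Rgs14 and Rgs18. Because Rgs2, Rgs3 and Rgs19 rose together from promyelocytes to myelocytes and Rgs16 passed in no comparison, their windows are printed for comparison, 5′ to 3′ along the gene's strand. Letters of 6 motifs, searched on both strands, are in capitals: the cAMP response half-site TGACG, the C/EBP motif TTNNGCAA, the PU.1 motif GAGGAAG, the E-box CACGTG, the CCAAT box and the TATA box TATAAA. No matches overlapped in these windows. The Rgs2 window is chr1:144004150-144004399 on the minus strand, the Rgs3 windows are chr4:62559597-62559846 and chr4:62619422-62619671 on the plus strand, the Rgs16 window is chr1:153740103-153740352 on the plus strand, and the Rgs19 window printed, the first of 3, is chr2:181693978-181694227 on the minus strand.
Rgs2: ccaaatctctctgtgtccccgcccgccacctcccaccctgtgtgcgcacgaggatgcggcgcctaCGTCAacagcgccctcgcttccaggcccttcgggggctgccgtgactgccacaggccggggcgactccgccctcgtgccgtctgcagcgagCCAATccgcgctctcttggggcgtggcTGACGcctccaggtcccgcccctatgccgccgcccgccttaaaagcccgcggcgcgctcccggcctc
Rgs3 window 1: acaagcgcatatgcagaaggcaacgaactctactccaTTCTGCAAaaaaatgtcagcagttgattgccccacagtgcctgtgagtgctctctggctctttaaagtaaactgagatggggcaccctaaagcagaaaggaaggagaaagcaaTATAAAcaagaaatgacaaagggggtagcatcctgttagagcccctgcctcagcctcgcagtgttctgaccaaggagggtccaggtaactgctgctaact
Rgs3 window 2: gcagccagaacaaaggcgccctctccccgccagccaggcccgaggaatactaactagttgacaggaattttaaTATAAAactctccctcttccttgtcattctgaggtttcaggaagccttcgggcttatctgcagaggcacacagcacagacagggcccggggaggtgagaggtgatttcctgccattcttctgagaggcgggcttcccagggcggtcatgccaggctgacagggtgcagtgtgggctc
Rgs16: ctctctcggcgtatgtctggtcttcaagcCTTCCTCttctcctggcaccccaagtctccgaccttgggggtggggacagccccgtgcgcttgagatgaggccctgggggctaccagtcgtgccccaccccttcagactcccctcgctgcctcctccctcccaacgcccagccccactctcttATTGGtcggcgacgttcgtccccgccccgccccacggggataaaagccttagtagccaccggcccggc
Rgs19 window 1: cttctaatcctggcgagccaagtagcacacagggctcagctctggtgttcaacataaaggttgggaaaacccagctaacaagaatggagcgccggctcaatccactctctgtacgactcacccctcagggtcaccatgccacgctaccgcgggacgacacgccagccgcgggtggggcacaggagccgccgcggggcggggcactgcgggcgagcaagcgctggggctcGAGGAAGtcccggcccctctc

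The Rgs2 window held 2 cAMP response half-sites, which begin 185 and 67 bases before the start, and a CCAAT box that begins 94 bases before it. Such a half-site is found in 17.8% and a CCAAT box in 33.8% of all 32851 windows of this length. The first Rgs3 window held a C/EBP motif, found in 9.56% of windows, and a TATA box, found in 12.4%, and the second held a TATA box 177 bases before its start. A PU.1 motif, found in 10.6% of windows, began 221 bases before the start of Rgs16, together with a CCAAT box at 68 bases. For Rgs19 it began 21, 188 and 110 bases before the starts of windows 1, 2 and 3, the first and second of these being the same place in overlapping windows. No E-box was found in these windows, where 6.02% of all windows have it, and the Rgs10 window held none of the 6 motifs. A match is a stretch of letters and says nothing of binding, and no motif was common to the windows of the genes that rose.

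Among the R4 genes, Rgs1, a GTPase activator for Gi and Gq subunits best known from B and T lymphocytes, had the widest range between stages. Its log2 level in the 3 LSK arrays was 10.57, 10.33 and 8.59, and in the 3 promyelocyte arrays 5.85, 6.42 and 6.53. It was 8.41, 7.24 and 6.63 in myelocytes. In granulocytes it was 3.93, 4.36 and 4.64. Every LSK array thus lay above every array of the other populations, and the granulocyte arrays lay on either side of the dim level, so that a fold against granulocytes is given only as a bound, with each granulocyte array taken at the dim level where it lay below it. The third LSK array lay well below the other 2, and the 3 myelocyte arrays were spread as widely.

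The means of Rgs1 were 9.83 ± 1.08, 6.27 ± 0.36, 7.43 ± 0.90 and 4.31 ± 0.36 (SD, n = 3) in LSK cells, promyelocytes, myelocytes and granulocytes. From LSK cells to promyelocytes Rgs1 fell by 3.56 on the log2 scale (SE 0.46), an 11.8-fold difference with an adjusted p of 0.000116 in the limma fit. Promyelocyte and myelocyte arrays did not overlap either, but their difference of 1.16 missed the threshold at an adjusted p of 0.0654, with a 95% interval of 0.18 to 2.14. Rgs1 was at least 7.34-fold higher in myelocytes than in granulocytes (adjusted p 0.000131), and at least 38.8-fold higher in LSK cells than in granulocytes (adjusted p 5.49e-08). Ranked by mean, LSK cells stood above myelocytes by 2.40 (5.29-fold, adjusted p 0.000526), myelocytes and promyelocytes were not separated by the test, and promyelocytes stood above granulocytes by at least 3.29-fold (adjusted p 0.00211). Rgs1 was the only one of the 7 genes that passed against all other stages both as the highest, in LSK cells, and as the lowest, in granulocytes. The study had listed Rgs1 among predicted miRNA targets that were high in LSK cells of these same samples, so its level there is not independent evidence of that direction.

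The difference of Rgs1 between promyelocytes and myelocytes moved with the arrays taken. It was 0.67 without the first myelocyte array and 1.56 without the third, and with the latter left out it passed the test with an adjusted p of 0.0185. Over the 3 myelocyte arrays Rgs1 had the same order as the 8 basophil and mast cell markers, 7 of which were above the dim level there, with means of 9.89, 8.78 and 7.75. The same was so for 8 monocyte and macrophage markers, with means of 8.22, 7.60 and 6.77 and all 8 above the dim level. Secondary granule genes (12.96, 12.92 and 12.85) and mature granulocyte genes (9.95, 9.82 and 9.74) had this order too. So did megakaryocyte and platelet markers (5.59, 5.50 and 5.18) and T and NK cell markers (4.71, 4.64 and 4.51). The immediate early genes described below had it as well. LSK, primary granule, eosinophil and B cell markers did not have this order. Among the lists that had it, the means spread far more widely in the basophil and monocyte lists than in the others. In promyelocytes the array with the lowest Rgs1 level had the highest means of the basophil and monocyte lists, 8.59 and 8.56. In LSK cells the array with the lowest Rgs1 level had the lowest means of these lists, 5.40 and 5.95. The part of these lists in the myelocyte level of Rgs1 was not tested.

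Rgs2, which acts chiefly on the Gq subunit, was lowest in promyelocytes. Its levels in LSK cells were 10.42, 10.07 and 8.79, and in promyelocytes they were 8.44, 8.25 and 7.96. The myelocyte arrays had 9.97, 9.86 and 9.62 and the granulocyte arrays 10.60, 10.68 and 9.78. All 3 promyelocyte arrays therefore lay below all 9 others, whereas LSK cells, myelocytes and granulocytes overlapped. The means were 9.76 ± 0.86, 8.22 ± 0.24, 9.82 ± 0.18 and 10.36 ± 0.50 (SD, n = 3) in lineage order.

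Rgs2 fell by 1.54 (SE 0.33) from LSK cells to promyelocytes, a 2.92-fold difference with an adjusted p of 0.00504, and rose again by 1.60 (3.03-fold, adjusted p 0.00102) to the myelocyte. In granulocytes it stood 2.14 above promyelocytes, or 4.41-fold, with an adjusted p of 4.43e-05. Among the other 3 populations no difference passed. Granulocytes and myelocytes differed by 0.54, with a 95% interval from -0.16 to 1.24, and myelocytes and LSK cells by 0.06, with an interval from -0.65 to 0.76. The sign of the last difference turned without the third LSK array, where it was -0.43.

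The third LSK array was the lowest of its group in Rgs1 and in Rgs2 alike, and it was also the lowest in a list of 13 immediate early genes, the genes that cells switch on within minutes of a stimulus or of handling. Their mean level was 9.57, 9.46 and 8.13 in the LSK arrays, 7.23, 7.32 and 8.10 in promyelocytes, 8.80, 8.63 and 8.62 in myelocytes and 9.40, 9.56 and 9.65 in granulocytes. All 13 were above the dim level at each stage. From LSK cells to promyelocytes 8 of the 13 fell, and 0 rose, against 2.75% and 1.61% of all genes. Nr4a1, an orphan nuclear receptor, fell by 4.26, and Zfp36, a factor of mRNA decay that the study had also listed among its LSK targets, fell by 2.17. The count of 8 was 5 without the first or the second LSK array. From promyelocytes to myelocytes 5 rose, from myelocytes to granulocytes 5 rose, and granulocytes stood above promyelocytes in 11. The shares of all genes that were higher in these comparisons were 7.61%, 2.35% and 10.1%. The third LSK array stood apart in other lists too: its mean was 7.75 in the primary granule genes against 9.81 and 10.28, 5.95 in the monocyte and macrophage markers against 6.63 and 6.95, and 5.87 in the megakaryocyte and platelet markers against 6.20 and 6.36, while it was the highest in the LSK markers (10.31 against 10.05 and 9.72). The part of immediate early genes, and of the cell types in the sort, in the levels of Rgs1 and Rgs2 was not tested. Without the third LSK array the first-step differences were -4.18 for Rgs1 and -2.03 for Rgs2, so both were larger without that array.

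**Figure D3:**
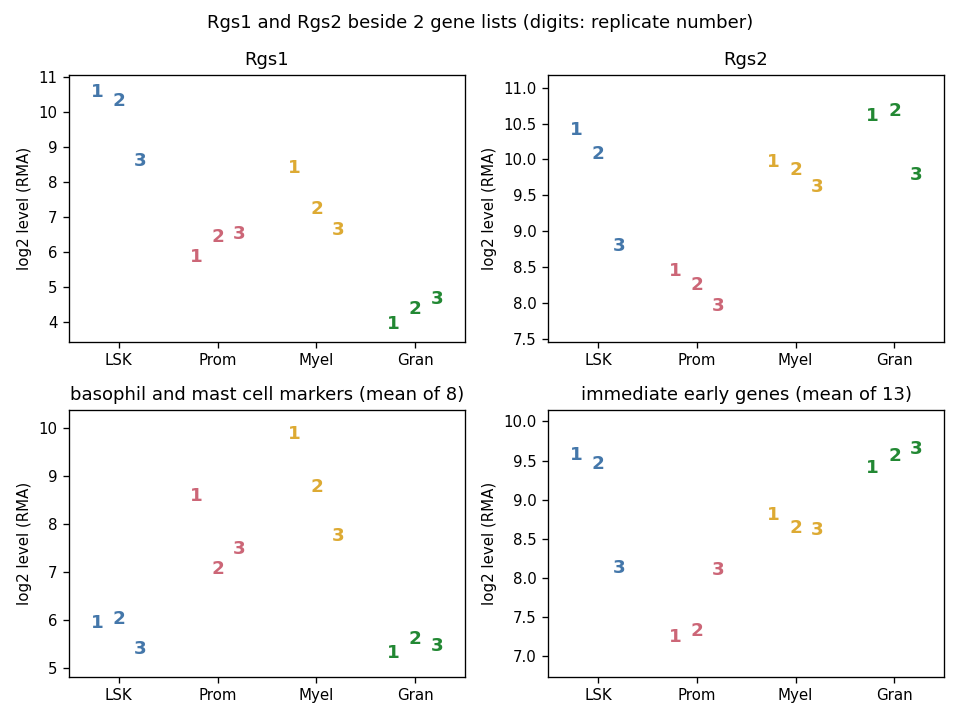
Log2 level of Rgs1 and Rgs2 (upper panels) and mean log2 level of 8 basophil and mast cell markers and 13 immediate early genes (lower panels) for each population on the horizontal axis, with each array drawn as its replicate number and each panel on its own vertical axis. The LSK array numbered 3 is the lowest of its group in all 4 panels, and the myelocyte arrays have the same order in each of them.

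Rgs3, whose protein has several isoforms that share the RGS domain, had 2 rows on the array. In the row with the higher mean the levels were 5.79, 6.00 and 6.32 in LSK cells, 5.83, 5.54 and 5.97 in promyelocytes, 6.79, 6.77 and 6.94 in myelocytes and 8.16, 8.25 and 8.27 in granulocytes. LSK cells and promyelocytes overlapped, and the myelocyte and then the granulocyte arrays lay above all earlier ones. Rgs3 rose by 1.06 (SE 0.16) from promyelocytes to myelocytes, which is 2.08-fold with an adjusted p of 5.47e-05, and by a further 1.39 to granulocytes, which is 2.62-fold with an adjusted p of 1.19e-05. It was the only one of the 7 genes that rose at the last step, and granulocytes passed as its highest stage against the 3 others. Myelocytes stood 0.80 above LSK cells with an adjusted p of 0.000659, short of a fold of 2, and LSK cells and promyelocytes differed by 0.26, which did not pass. The first rise lay close to the fold threshold: it was 0.98 with the arrays centred on their medians and 0.94 without the second promyelocyte array.

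The other row of Rgs3 gave a flatter picture. Its levels were 5.48, 5.43 and 5.46 in LSK cells, 5.21, 5.19 and 5.08 in promyelocytes, 5.17, 5.32 and 5.35 in myelocytes and 5.66, 5.65 and 5.57 in granulocytes. Granulocyte arrays were again above all others, yet the difference from promyelocytes was 0.47 with an adjusted p of 0.0045, and in no comparison did this row reach a fold of 2. The annotation of the higher row names 1 curated transcript and that of the other row 3, with 1 shared between them, and over the 12 arrays the rows correlated at r = 0.713. The rises of Rgs3 are therefore those of 1 row. Whether the rows differ by transcript or by the response of their probes was not tested.

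**Figure D4:**
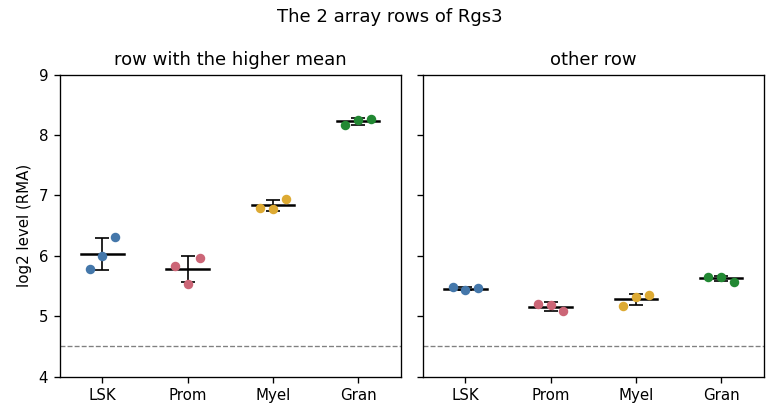
Log2 level (vertical axis) of the 2 array rows that name Rgs3 in the 4 populations (horizontal axis), with points for single arrays, bars for the mean and SD of 3 arrays and a dashed line at the dim level. The row with the higher mean runs from 5.54 to 8.27 and steps up in myelocytes and granulocytes, and the other row stays between 5.08 and 5.66.

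Rgs18, a GTPase activator for Gi and Gq subunits known for its abundance in platelets and megakaryocytes, followed a shallow dip and rise. The LSK arrays had 10.36, 9.87 and 9.79, the promyelocyte arrays 9.49, 9.62 and 9.20, the myelocyte arrays 10.47, 10.41 and 10.41, and the granulocyte arrays 10.66, 10.85 and 10.85. All populations were separate in this ranking, with promyelocytes lowest and granulocytes highest. The only difference past both thresholds was that of granulocytes over promyelocytes, 1.35 (SE 0.16), or 2.55-fold, with an adjusted p of 3.63e-06. The step from promyelocytes to myelocytes was 0.995 with an adjusted p of 0.000148, or 1.99-fold, just under the fold of 2, and it passed with the 75th percentile of each array as the common scale, with quantile normalization, and without any 1 of 4 arrays. Promyelocytes stood 0.57 below LSK cells with an adjusted p of 0.0314, and granulocytes stood 0.78 above LSK cells with an adjusted p of 0.000865, both short of a fold of 2. Markers of megakaryocytes and platelets, 7 in number, averaged 5.87 to 6.36 in LSK cells and 5.20 to 5.44 in granulocytes, and their part in the Rgs18 level was not tested.

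Rgs16, an R4 member that acts on Gi and Gq subunits and is induced in activated lymphocytes, showed no difference among stages that passed. It measured 4.93, 5.58 and 5.04 in LSK cells, 4.92, 5.01 and 5.42 in promyelocytes, 4.85, 4.85 and 5.11 in myelocytes and 5.32, 5.33 and 5.31 in granulocytes. All values lay between 4.85 and 5.58, near the dim level, and all groups but myelocytes and granulocytes overlapped. The largest difference, that of granulocytes over myelocytes, was 0.38 (SE 0.18), with a 95% interval from 0.00 to 0.77 and an adjusted p of 0.149. None of the 6 intervals reached a fold of 2, and for a probe set so close to dim signal a change in the message may be larger than its measured difference.

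Rgs14, of the R12 subfamily, joins an RGS domain that acts on Gi subunits to a GoLoco motif that binds Gi in its GDP form. The levels were 6.12, 6.22 and 6.07 in LSK cells and 6.62, 6.18 and 6.39 in promyelocytes. They were 8.46, 8.16 and 8.15 in myelocytes and 8.92, 8.78 and 9.03 in granulocytes. The first 2 populations overlapped, and every array of the last 2 lay above them. The rise from promyelocytes to myelocytes was 1.86 (SE 0.15), or 3.62-fold, with an adjusted p of 8.55e-08. Granulocytes lay another 0.66 higher, 1.58-fold with an adjusted p of 0.00434, short of a fold of 2, and stood 6.85-fold above LSK cells (2.78, adjusted p 4.46e-10). LSK cells and promyelocytes were not separated (0.26, adjusted p 0.302).

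Rgs19, also called GAIP, is the RZ member and acts on Gi and Gz subunits. It measured 8.21, 8.34 and 8.58 in LSK cells and 8.50, 8.13 and 8.00 in promyelocytes, then 9.85, 9.74 and 9.51 in myelocytes and 9.64, 9.67 and 10.03 in granulocytes. Its levels thus formed a lower and an upper pair of populations that overlapped within each pair and not between them. The rise from promyelocytes to myelocytes was 1.49 (SE 0.17), or 2.81-fold, with an adjusted p of 3.76e-06. The differences within the pairs were -0.16 for promyelocytes against LSK cells and 0.08 for granulocytes against myelocytes, with 95% intervals from -0.53 to 0.20 and from -0.29 to 0.44.

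Over the 12 arrays Rgs14 and Rgs19 correlated at r = 0.958, Rgs3 and Rgs14 at 0.912, and Rgs2 and Rgs18 at 0.869. Rgs1 had a negative r with Rgs3 (-0.678) and Rgs14 (-0.646), and its r with Rgs2 was 0.01. These values are descriptions, since the arrays fall into 4 populations and share their scaling, and much of each r is the order of the population means.

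Among 13319 other named genes above the dim level, those most like each RGS gene over the 12 arrays were found by Pearson's r, the measure for the 3 nearest in each case. Because these genes were chosen by r over the same arrays, a likeness of their stage means to the RGS gene is no separate finding. For Rgs14 they were Abca7, a lipid transporter, at 0.997, Rab6a, a GTPase of Golgi traffic, at 0.996, and Rin2, an exchange factor for a Rab GTPase, at 0.996. For Rgs19 they were Lasp1, an actin-binding protein, at 0.991, Arhgap27 at 0.990 and Aldh3a2 at 0.988. For Rgs3 they were Myadm at 0.989, Selenon at 0.987 and the long non-coding RNA Mirt2 at 0.985. For Rgs18 they were Fbxo11, a ubiquitin ligase subunit, at 0.975, Cript at 0.975 and Rnf24 at 0.974. The nearest genes to these 4 were themselves highest in granulocytes and lowest in LSK cells or promyelocytes, as their means show: Abca7 ran from 7.55 in LSK cells to 9.49 in granulocytes and Lasp1 from 8.87 in promyelocytes to 11.29 in granulocytes.

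The nearest genes to Rgs2 were Skil, a repressor of SMAD signalling, at 0.937, the immediate early gene Ier2 at 0.917 and the splicing kinase Clk1 at 0.898. All 3 had their lowest mean in promyelocytes, as Rgs2 did: Ier2 averaged 9.02 in LSK cells, 8.25 in promyelocytes, 9.88 in myelocytes and 10.25 in granulocytes. For Rgs1 they were Lrba at 0.919, the nuclear receptor Rora at 0.909 and B4galnt4 at 0.909, all with their highest mean in LSK cells. For Rgs16 they were Lsmem1 at 0.937, Pth2 at 0.912 and Cacna2d2 at 0.910, genes with means between 4.33 and 5.53 and thus also near the dim level.

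On chromosome 1 of the reference, Rgs2, Rgs13, Rgs1, Rgs21 and Rgs18 follow one another with 0 other protein-coding genes between neighbours, and Rgs8 and Rgs16 form another such pair. Members of this row of genes did not all share a course. Rgs1 was highest in LSK cells and dim in granulocytes, its neighbours on either side, Rgs13 and Rgs21, lay under the dim level at every stage with means of 1.96 to 2.36, and Rgs2 and Rgs18 at the ends were both lowest in promyelocytes and highest in granulocytes by mean. Rgs8, beside Rgs16, had means of 4.32 to 4.80.

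Of 13 other RGS genes on the array, 4 were above the dim level at some stage and only Rgs12 passed in any comparison. Rgs12 is the large R12 protein that pairs an RGS domain with a GoLoco motif, as Rgs14 does. Its levels were 7.18, 7.05 and 7.35 in LSK cells, 6.79, 7.23 and 7.23 in promyelocytes, 6.19, 6.03 and 5.89 in myelocytes and 4.93, 5.50 and 5.35 in granulocytes, so the last 2 populations lay below the first 2 without overlap. It fell by 1.05 (SE 0.18, adjusted p 0.000166) from promyelocytes to myelocytes, a step that missed the fold of 2 by little under 3 other scalings (-0.99, -0.99 and -0.98) and without promyelocyte array 2 or 3 or myelocyte array 3 (-0.98 each). Granulocytes stood 1.93 below LSK cells with an adjusted p of 1.42e-07. Rgs12 and Rgs14 therefore moved in opposite directions between LSK cells and granulocytes, by -1.93 and 2.78.

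The G alpha subunits that RGS proteins act on were measured for 12 of 13 genes, 9 of them above the dim level. Gnai2, the main Gi subunit of leukocytes, averaged 11.10, 11.12, 12.09 and 12.20 in lineage order, and granulocytes stood 1.07 (SE 0.13) above promyelocytes and 1.10 above LSK cells. Gnai3 averaged 9.30, 9.76, 10.44 and 10.47, with granulocytes 1.17 above LSK cells. Gnaq averaged 7.98, 7.74, 9.00 and 9.10 and rose by 1.26 (SE 0.12, adjusted p 6.73e-07) from promyelocytes to myelocytes. It was the only G alpha gene of the 12 that passed at that step. There 2 passed with arrays centred on the 75th percentile, with quantile normalization or without promyelocyte array 1, and 5 with no fold threshold. Gna12 averaged 8.06, 8.44, 8.04 and 7.25 and fell by 1.19 between promyelocytes and granulocytes, a call that was lost with the arrays centred on the 75th percentile (-0.96). Gna13 (8.84 to 9.27), Gna15 (7.42 to 8.30), Gna11 (5.90 to 6.71) and Gna14 (4.76 to 5.36) did not pass in any comparison. From promyelocytes to granulocytes 2 of 12 G alpha genes rose and 1 fell, where 10.1% of all genes rose and 16.3% fell, and the median difference was 0.31 against 0.13 for all genes. The rise of Gnai2 over promyelocytes fell short of a fold of 2, at 0.98, both with the arrays centred on the median and with cyclic loess.

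Of 15 G beta and gamma genes, 2 rose from promyelocytes to myelocytes, Gnb2 by 1.08 (0.95 with cyclic loess) and Gng5 by 1.22, and 0 fell, against 7.61% and 9.87% of all genes. The rise of Gnb2 also fell short of a fold of 2 without promyelocyte array 3 (0.91) or myelocyte array 1 (0.98). From myelocytes to granulocytes Gng2 rose by 1.00, just at the fold of 2, and by 0.99 with median centring it did not pass. Nor did it pass without myelocyte array 2 (0.95) or 3 (0.90) or granulocyte array 1 or 3 (0.97 each). Gnb4 averaged 6.48 in LSK cells and was dim in granulocytes, at least 3.92-fold lower.

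Upstream of the G proteins stand the receptors. Of 18 Gi-coupled receptors listed, chiefly chemoattractant receptors, 16 were measured. Of these 10 rose from promyelocytes to myelocytes and 0 fell, with a median difference of 2.02. Over all genes 7.61% rose and 9.87% fell, with a median difference of 0.01. C5ar1, the complement C5a receptor, rose by 5.32 (SE 0.15), and Cxcr2, the receptor that draws neutrophils out of marrow, by 4.00 (SE 0.29). Ccr1 and C3ar1 rose from dim signal, Ccr1 at least 18.7-fold and C3ar1, the complement C3a receptor, at least 5.79-fold. The 3 myelocyte arrays of C3ar1, at 8.58, 7.08 and 5.46, had the order of the basophil and mast cell markers, whose means were 9.89, 8.78 and 7.75. The monocyte and macrophage markers had this order as well. So did the other lists that shared the order of Rgs1, but over a narrower range of means than the basophil and monocyte lists. From myelocytes to granulocytes 2.35% of all genes rose and 5.96% fell. Of the receptors 5 rose, among them Hcar2, a nicotinic acid receptor, by 3.18, and 4 fell. Among the latter C3ar1 returned to dim signal, at least 5.79-fold lower, Ccr2, the monocyte chemokine receptor, fell by 2.48, and Hrh4, a histamine receptor of basophils, mast cells and eosinophils, fell to dim signal from a mean of 5.45, at least 1.93-fold. Basophil and mast cell markers moved with them, from means of 7.75 to 9.89 in myelocytes to 5.33 to 5.62 in granulocytes, and the part of such cells was not tested. From LSK cells to promyelocytes 4 rose and 3 fell, against 1.61% and 2.75% of all genes. Of these rises, that of Ccr1 lay under the dim level, with means of 2.75 in LSK cells and 3.99 in promyelocytes. The rise of Cx3cr1 did not pass without LSK array 1 or 3 or without promyelocyte array 1 or 3. Ccr2 rose by 2.43 and Ltb4r1, a leukotriene receptor, by 1.29. At this step 6 of 8 monocyte and macrophage markers rose, Ccr2 and Cx3cr1 themselves among them, and the part of such cells was not tested. S1pr1, the receptor for sphingosine 1-phosphate, fell by 1.95 and P2ry14 fell by 1.94. Cxcr4, which retains cells in marrow, averaged 10.33, 11.04, 11.95 and 12.25.

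Receptor kinases and arrestins end receptor signals at the receptor itself, whereas RGS proteins do so at the G protein. Of 6 measured, 3 rose from promyelocytes to myelocytes and 0 fell, against 7.61% and 9.87% of all genes. Arrb2 rose by 3.31 (SE 0.18), Grk6 by 1.61 (SE 0.14) and Grk5 by 1.51 (SE 0.19). At the last step Grk5 rose by another 1.75 and Grk3 fell by 1.34. Arrb1 averaged 8.50, 7.82, 8.50 and 9.27, and was 1.45 higher in granulocytes than in promyelocytes. Grk4 was above the dim level in granulocytes only, with a mean of 4.55.

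Of 11 genes for GoLoco proteins, exchange factors of G alpha and other proteins with an RGS-like domain, 3 rose from promyelocytes to myelocytes and 0 fell. Over all genes 7.61% rose and 9.87% fell at that step. Gpsm3, a small GoLoco protein of leukocytes, rose by 2.21, Arhgef1 by 1.36 and Arhgef11 by 1.31. Arhgef12 fell at least 4.18-fold at the first step, to dim signal, and the study had listed it among its LSK targets on these samples. Gpsm2, a GoLoco protein of the mitotic spindle, fell by 1.64 at the last step. Of 21 effectors, 5 rose from promyelocytes to myelocytes and 0 fell, against the same 7.61% and 9.87% of all genes. Among the 5, Prkcb rose by 2.97, Pik3r5 by 2.13, Pik3r6 by 1.78 and Plcb2 by 1.29. Pik3r5 and Pik3r6 encode the regulatory partners of the beta-gamma-driven PI3 kinase gamma. At the last step 1 rose, Prex1, a Rac exchange factor that beta-gamma activates, by 1.23, and 0 fell. There 2.35% of all genes rose and 5.96% fell.

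**Figure D5:**
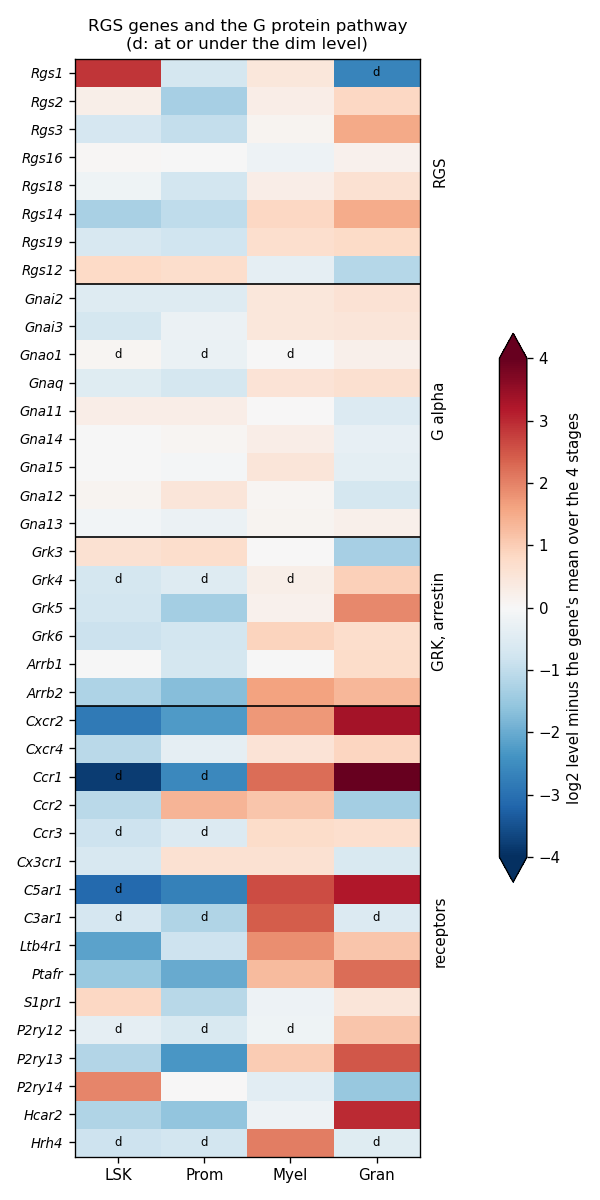
Mean log2 level at each population (columns) minus the gene's own mean over the 4 populations, as a colour from -4 to 4, for the 7 RGS genes and Rgs12 and for the G alpha, receptor kinase and arrestin, and receptor genes above the dim level at some stage (rows), with d where the population mean is at or under the dim level. Rgs1 and Rgs12 are high on the left and low on the right, the other changing RGS genes are highest in granulocytes, and the deepest colours are those of receptors such as Cxcr2, Ccr1 and C5ar1.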

How the data were processed

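Total RNA of sorted LSK cells, promyelocytes, myelocytes and granulocytes had been hybridised to 1-colour Affymetrix Mouse Gene 1.0 ST arrays. The values used are the deposited log2 levels, produced by the authors with the justRMA function of Bioconductor, which corrects background, normalizes probes by quantiles and sums probe sets by median polish. Its version is not given in the sources used here. They were not normalized further. No arrays held identical values, arrays of a group correlated at 0.981 to 0.991 across the genes tested, and 0 columns of per-sample values were left out. The labels name no batch.

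The probe table gives 1 symbol for 21640 of the 34760 rows, several for 1321 and no symbol for 11799. Only the first were used, with the row of highest mean for each gene. This left 19937 genes, tested in limma 3.58.1 under R 4.3.3 by 1 fit of 4 group means to the 12 arrays without a block (8 residual and 7.02 prior degrees of freedom), with p adjusted by Benjamini-Hochberg over all genes. Where 1 of 2 groups had a mean at or under the dim level, the fold is a lower bound, with arrays below that level set to it.

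The RGS genes, the 18 other gene lists and the tests were chosen with earlier results of these data known. Named are all listed RGS genes, the 3 genes most like each by Pearson's r (predicted gene models left out), Rgs neighbours on the chromosome, G alpha, receptor kinase and arrestin genes, and from the other lists at most 4 called genes a comparison, by size. Cxcr4 was named besides, after its values were seen, as were Ccr1 and Cx3cr1 for the step from LSK cells to promyelocytes. The alternatives rescaled the arrays (median, 75th percentile, quantile, cyclic loess), dropped dim genes, took other rows, thresholds or models of the spread, fitted only 2 groups, added a replicate block, or left out 1 array at a time. Promoter windows were RefSeq's, on GRCm38.p6.

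Numbers shared between groups are not stated by the labels to mark a common animal or day. The deviations of same-numbered arrays from their group means correlated at 0.118 to 0.196 over the 3 pairs of promyelocytes and myelocytes. The range was 0.074 to 0.115 for promyelocytes and granulocytes, and -0.253 to 0.253 over the remaining comparisons. The reported fit did not pair arrays, and a replicate block was only among the alternatives. The replicate block changed no call of an RGS gene, and with it 4 of them were called from promyelocytes to myelocytes.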

Additional observations from a re-analysis of the deposited data

How the results depend on the processing

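Of 1008 differences of an RGS gene recomputed under 24 alternatives, 974 kept their direction and side of the threshold, 16 passed newly, 8 no longer passed and 10 changed sign, none of the last being a called difference. The sign changes were those of Rgs16 from LSK cells to promyelocytes (0.014 with median centring, 0.0097 with quantile normalization and, with 1 array left out, -0.22 to 0.13, above 0 without LSK array 2 or promyelocyte array 1), Rgs2 in myelocytes against LSK cells (-0.049 with cyclic loess and, with 1 array left out, -0.43 to 0.39, below 0 without LSK array 3 or myelocyte array 1), Rgs3 in myelocytes against LSK cells (-0.18 with the lowest-mean row) and Rgs19 in granulocytes against myelocytes (-0.049 to 0.15 with 1 array left out, below 0 without myelocyte array 3 or granulocyte array 3). The 8 calls lost were all of Rgs3, and 6 of them came with its other row or the mean of both, under which the RGS genes called from myelocytes to granulocytes were 1 in each case in place of 2. The other 163 of 165 counts of RGS genes called stayed within 1.5 times, and from promyelocytes to myelocytes they ran from 4 to 6 with an array left out. With the replicate block that count was 4. Rgs1 passed at that step with 75th percentile centring (1.22), with the unadjusted p, in a fit of the 2 groups, and without LSK array 3 or myelocyte array 3. Centring on the 75th percentile moved the median of all genes from 0.09 to 0.25 for granulocytes against myelocytes and from 0.17 to 0.39 against LSK cells, where 635 genes were higher and 886 lower (469 and 1188 as reported) and 2440 higher and 2781 lower (1912 and 3293 as reported). Beyond the change of row, the cause of these changes was not tested. The fold of 2 is a chosen threshold, and levels near the dim level and the 3 arrays a group limit the precision.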
